A study of Macaca mulatta with 52 samples.

Results

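Transcription factors that set up epithelial and trophoblast cells were followed through preimplantation development of the rhesus monkey (Macaca mulatta). The set holds 7 gene symbols: ELF3, TFAP2A, TFAP2C, KLF5, DLX3, TP63 and GRHL2. A gene was taken by its symbol among the named rows of the count table, and 6 of the 7 symbols were found, out of 26309 identifiers of which 15078 carried a name. No identifier carried the name KLF5, a zinc finger factor of trophectoderm, and it was not analysed here. The identifiers are ENSMMUG00000001929 for ELF3, ENSMMUG00000006186 for TFAP2A, ENSMMUG00000009364 for TFAP2C, ENSMMUG00000000157 for DLX3, ENSMMUG00000016466 for TP63 and ENSMMUG00000020995 for GRHL2. Each symbol stood on 1 identifier, so isoforms of a gene, such as the long and short forms of TP63, are summed.

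The trophectoderm is the first epithelium of the mammalian embryo: outer cells polarise in the morula, seal their junctions, pump fluid to form the blastocyst cavity and later give rise to the trophoblast of the placenta. AP-2 factors (TFAP2A and TFAP2C) bind trophoblast and ectoderm enhancers, and TFAP2C acts with CDX2 and GATA3 in trophoblast identity. GRHL2 switches on junction genes such as those of cadherin and claudins in many epithelia. ELF3 is an ETS factor of simple epithelia, DLX3 a homeobox factor needed in the mouse placenta, and TP63 a p53 relative known from basal cells of stratified epithelia, cytotrophoblast and, in another isoform, oocytes.

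RNA was sequenced from single embryos at 4 stages: 8-cell, morula, expanded blastocyst and delayed blastocyst. In vivo matured oocytes of females stimulated with FSH and hCG were fertilised in vitro, cumulus cells were taken off by pipetting, and culture was with or without relaxin, which the labels do not assign to embryos. Libraries came from a kit of linear isothermal amplification (SPIA; 9 8-cell embryos, 11 morulas, 14 expanded and 2 delayed blastocysts) or from a low-input kit with ribosomal depletion after the first amplification (SoLo; 4 8-cell embryos, 3 morulas and 6 expanded blastocysts), and 11 embryos could be matched by number in both. The 2 SoLo expanded blastocysts of code 111215 also have SPIA libraries, but their columns do not show which is which. The mature oocytes named in the design text were not analysed here. Levels are counts-per-million values (CPM) after TMM scaling within a kit. A whole embryo is measured, so fewer cells of a type and less RNA per cell cannot be told apart.

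Library totals were 0.601 to 21.04 M (mega) counts for SPIA, against 5.70 to 10.6 M for SoLo, and the expanded blastocyst 111715_05 was the library with 0.601 M. The stage labels were checked on genes outside the set. ZSCAN4, a marker of genome activation, lay between 116 and 214 CPM in 8-cell SPIA libraries and had a median of 7.13 CPM in morulas and 0.788 CPM in expanded blastocysts. GATA2, a trophectoderm factor, had medians of 0.490, 0.907 and 244 CPM in the same order, and CDX2 had no named identifier. The 8-cell library 020816_09 stood apart: 21 oocyte genes summed to 12299 CPM against 533 to 2653 CPM in the other 8-cell SPIA libraries. POU5F1 was listed at 0 there, which allows up to 0.273 CPM, against 0.266 to 103 CPM in the others. The 0.266 CPM of 011516_03 lies within that limit, so POU5F1 does not separate these 2 libraries. Cumulus and granulosa cell markers (15 named genes) summed to 45.9 to 2264 CPM in 8-cell SPIA libraries, 2.31 to 50.8 CPM in morulas and 4.51 to 60.6 CPM in expanded blastocysts. They were highest in the 8-cell embryos 020816_06, 020816_07 and 112815_02, in both kits. Title codes, which may mark a collection, were hardly shared: 8-cell embryos and morulas of SPIA shared 1 code, morulas and expanded blastocysts shared 0. Stage and code cannot be told apart from morula to expanded blastocyst, and from 8-cell to morula only code 020816, with 5 8-cell and 3 morula SPIA libraries, holds both stages.

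The factors came on in steps, and by the rule used here the order was the same in both kits. A factor was counted as on at a stage when at least 50% of its libraries held 1 CPM or more. By that rule TFAP2A, TFAP2C, TP63 and GRHL2 were already on at the 8-cell stage, ELF3 came on in the morula and DLX3 in the expanded blastocyst. ELF3 was on in 0 of 9 8-cell SPIA libraries, 9 of 11 morulas and 14 of 14 expanded blastocysts. DLX3 was on in 1 of 9, 3 of 11 and 14 of 14. In SoLo the counts were 1 of 4, 3 of 3 and 6 of 6 for ELF3 and 1 of 4, 1 of 3 and 6 of 6 for DLX3. The order is a description and has no test, and the SoLo embryos also have SPIA libraries. It moved with the rule for single factors: ELF3 in SoLo was placed at the 8-cell stage at 0.5 CPM, when any library sufficed and when libraries were thinned to a common total, so that the kits then differed for it. Thinned values were scaled by total counts without TMM, so depth and scaling changed together in that setting. For ELF3 the 8-cell SoLo library 112815_02 held 0.933 CPM, close to the 1 CPM of the rule. DLX3 was placed at the 8-cell stage in both kits when any library sufficed, GRHL2 in SPIA moved to the morula at 5 CPM, and TFAP2A and GRHL2 in SPIA moved to the expanded blastocyst when 80% of libraries were asked for.

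**Figure D1:**
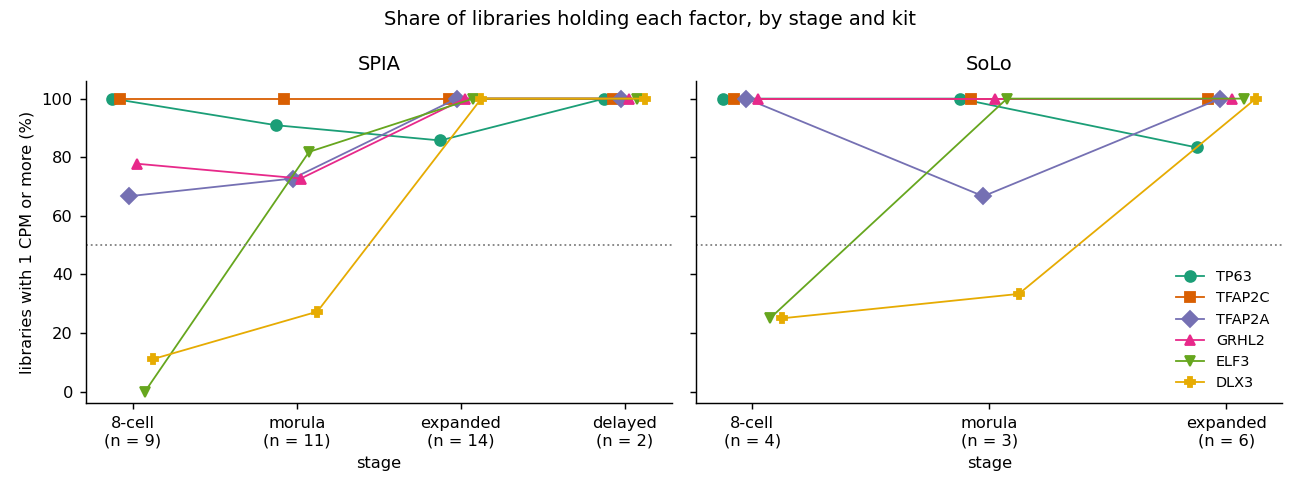
Share of libraries (percent, vertical axis) that held 1 CPM or more of each factor, by stage, in SPIA (left) and SoLo (right); symbols are shifted sideways so that they do not cover each other, and the dotted line marks 50%. ELF3 crosses the line at the morula and DLX3 at the expanded blastocyst in both kits, while the other 4 factors are above it from the 8-cell stage on.

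TFAP2C was present in every library, and no stage step of it passed the test. In SPIA its lowest, median and highest levels were 2.92, 132 and 304 CPM at the 8-cell stage, then 23.5, 77.3 and 181 CPM among morulas and 47.9, 68.6 and 147 CPM among expanded blastocysts. The 2 delayed blastocysts held 66.9 and 102 CPM. The stages overlapped throughout, and the low 8-cell value was again library 020816_09, with the next at 45.9 CPM. In SoLo the 8-cell libraries spanned 194 to 240 CPM, the 3 morulas held 187, 169 and 216 CPM, and the expanded blastocysts spanned 191 to 269 CPM, a coefficient of variation of 10.5, 12.5 and 11.9% in stage order. The test was edgeR's quasi-likelihood test with Benjamini-Hochberg adjustment over all genes, and a change passed at an adjusted p under 0.05. The log2 fold change from 8-cell to expanded blastocyst was -0.79 ± 0.38 (SE) in SPIA, adjusted p 0.103, and 0.06 in SoLo. Without library 020816_09 the SPIA value was -0.95 with an adjusted p of 0.0159, and in the libraries under 12 M counts, which leave that library out too, it was -1.28 (adjusted p 0.00380).

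TFAP2A, the close relative of TFAP2C, was uneven from embryo to embryo. In SPIA it had a lowest, median and highest value of 0, 16.6 and 35.1 CPM at the 8-cell stage, 0, 5.07 and 43.4 CPM in morulas and 4.28, 13.8 and 103 CPM in expanded blastocysts, with 13.6 and 31.7 CPM in the 2 delayed blastocysts. It was on in 6 of 9 8-cell libraries and 8 of 11 morulas. A count of 0 in 8-cell embryo 011516_02 allows up to 0.397 CPM, and the one in morula 022916_03 up to 0.183 CPM (3 counts of the total, counting error only). In SoLo the values were 3.07 to 16.3 CPM at the 8-cell stage, 0, 1.74 and 9.16 CPM in the 3 morulas and 14.9 to 50.7 CPM in expanded blastocysts. All 6 SoLo expanded blastocysts lay above all 3 morulas, and 5 of 6 lay above every 8-cell library. The step from morula to expanded blastocyst in SoLo was 3.17 ± 0.98 on the log2 scale and did not pass (adjusted p 0.122 and unadjusted p 0.00503 in edgeR). No step of TFAP2A passed in SPIA, where the same step was 0.83 with an adjusted p of 0.526.

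TP63 was highest at the 8-cell stage and fell. Its lowest, median and highest values in SPIA were 1.30, 21.4 and 2430 CPM at the 8-cell stage, then 0.313, 5.55 and 69.3 CPM among morulas and 0.225, 3.8 and 29.7 CPM among expanded blastocysts. The 2 delayed blastocysts held 2.44 and 1.48 CPM. The value of 2430 CPM came from library 020816_09, and 216 CPM in 011516_03 was the next. In SoLo, which has no library of 020816_09, the 8-cell embryos held 17.2, 51.1, 35.8 and 22.5 CPM, the morulas 1.83, 8.48 and 4.84 CPM and the expanded blastocysts between 0.452 and 4.85 CPM. There every 8-cell library lay above every later one, while the SPIA stages overlapped. From 8-cell to morula TP63 fell by 4.85 ± 1.12 on the log2 scale in SPIA (adjusted p 0.00379, n = 9 and 11) and fell by 2.65 ± 0.82 in SoLo (adjusted p 0.0358, n = 4 and 3). From 8-cell to expanded blastocyst it fell by 5.74 ± 1.07 in SPIA (adjusted p 0.000116) and fell by 3.82 ± 0.66 in SoLo (adjusted p 0.000324). Without 020816_09 the SPIA step to the morula was -2.02 with an adjusted p of 0.0887, and the step from 8-cell to expanded blastocyst still passed (-2.85, adjusted p 0.00543). In the libraries under 12 M counts, which leave out 020816_09 and others, these values were -1.003 (adjusted p 0.534) and -0.52 (adjusted p 0.712). The SoLo step to the morula was lost when 8-cell embryo 020816_07 or 020816_08 or morula 021016_02 or 022916_01 was left out (adjusted p 0.0915, 0.0596, 0.119 and 0.0866, with log2 values of -2.31, -2.57, -2.25 and -2.62) and when the embryos 020816_06, 020816_07 and 112815_02 were left out together (-2.83, adjusted p 0.102). Within title code 020816 the 8-cell SPIA libraries held 1.30 to 2430 CPM and the 3 morulas 6.52, 2.496 and 1.29 CPM, a log2 step of -7.02 (adjusted p 0.306).

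TP63 is best known from keratinocytes, whose markers were looked at beside it. Among 9 named genes of that list, 6 were tested. Between 8-cell and morula 0 of the 6 passed in either kit (edgeR, with 2 at an unadjusted p under 0.05 in each kit). Of all genes 19.4% passed in SPIA and 16.7% in SoLo. The summed level of the 9 named markers was 0.397 to 289 CPM at the 8-cell stage in SPIA, with the highest sum in 020816_09, and 0.731 to 28.5 CPM in morulas. By mean level in 8-cell SPIA libraries KRT10 led the tested markers at 28.7 ± 78.3 CPM, then COL17A1 at 7.11 ± 13.5, DSG1 at 5.84 ± 11 and SFN at 3.55 ± 5.36, and DSG3 (0.228 ± 0.339) and TGM1 (0.0404 ± 0.1002) were low. These markers were picked after their values were seen. Oocyte genes, another setting in which TP63 is known, moved down with it: 7 of 21 tested fell and 0 rose from 8-cell to morula in SPIA (median -2.03 against -0.14 for all genes), and 18 fell and 0 rose from 8-cell to expanded blastocyst (median -4.44 against -0.43). In SoLo 5 of 21 fell and 0 rose to the morula, and 15 fell and 1 rose over the whole span. Of all genes 10.3% fell to the morula and 23.7% over the whole span in SPIA, and 6.92% and 19.8% in SoLo. The part of oocyte transcripts in the TP63 values was not tested. The markers of cumulus cells were high in the same stage as TP63, as given above, and their part in the TP63 values was not tested. In 8-cell embryo 020816_08, where the cumulus marker sum was lowest in both kits (45.9 CPM in SPIA and 40.3 CPM in SoLo), TP63 was 1.30 CPM in SPIA and 35.8 CPM in SoLo.

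GRHL2 was present at low levels early and had its highest medians in expanded blastocysts, in both kits. In SPIA its lowest, median and highest values were 0.414, 3.13 and 39.4 CPM at the 8-cell stage, then 0.469, 10.2 and 80.2 CPM among morulas and 59.0, 86.7 and 203 CPM among expanded blastocysts, and the delayed blastocysts held 106 and 57.8 CPM. Every expanded blastocyst lay above every 8-cell library, and 10 of 11 morulas lay below the lowest expanded blastocyst. In SoLo the 8-cell libraries held 12.5 to 18.4 CPM, the morulas 58.8, 4.83 and 94.5 CPM and the expanded blastocysts 132 to 173 CPM, and expanded blastocysts lay above all earlier libraries there, while in SPIA 7 of 14 lay above the highest morula. GRHL2 rose from morula to expanded blastocyst by 2.10 ± 0.66 on the log2 scale in SPIA (adjusted p 0.0267). In SoLo the same step was 1.49 ± 0.56 and did not pass in edgeR (adjusted p 0.202), so its timing rests on SPIA. GRHL2 rose from 8-cell to expanded blastocyst by 2.77 ± 0.74 in SPIA (adjusted p 0.00331) and by 3.15 ± 0.54 in SoLo (adjusted p 0.000508). In the SPIA embryos that have no SoLo library both SPIA steps were lost (2.29 with an adjusted p of 0.0761 and 2.48 with 0.0613). Without the 3 embryos with cumulus markers the SoLo step from 8-cell to expanded blastocyst was 3.56. The step from 8-cell to morula did not pass in SPIA (0.67 ± 0.70, adjusted p 0.538) or SoLo (1.66 ± 0.56, adjusted p 0.0581). Morula 021016_03 was the low one of the 3 in SoLo, at 4.83 CPM, and was also below 1 CPM in SPIA (0.680 CPM), as were 022416_02 and 020816_04. Without it the SoLo step to the morula was 2.21 with an adjusted p of 6.3e-05.

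ELF3 had the largest log2 rise of the 6 in SPIA, from 8-cell to morula and from 8-cell to expanded blastocyst, over an 8-cell level near 0. In SoLo it did so too, except without 8-cell library 112815_02, where DLX3 rose more (7.29 and 9.67). In 8-cell SPIA libraries it ranged from 0 to 0.290 CPM (median 0.132), which rests on at most 6 counts a library, and 3 of the 9 libraries held none, each of which allows up to 0.248 to 0.277 CPM. Morulas spanned 0.0402 to 121 CPM with a median of 12.2, expanded blastocysts 20.96 to 212 CPM with a median of 82.3, and the delayed blastocysts held 67.2 and 51.2 CPM. Of the 11 morulas, 10 lay above every 8-cell library, and only 020816_04 lay within their range. Within title code 020816 the 5 8-cell libraries held 0 to 0.290 CPM and the 3 morulas 38.4, 57.9 and 0.0402 CPM. In SoLo the 8-cell embryos held 4.24, 0.284, 0.226 and 0.933 CPM, the morulas 8.69, 8.78 and 93.1 CPM and the expanded blastocysts 97.5 to 145 CPM, and the 3 stages did not overlap. ELF3 rose from 8-cell to morula by 7.53 ± 0.91 on the log2 scale in SPIA (adjusted p 3.04e-07) and by 4.68 ± 1.00 in SoLo (adjusted p 0.00795). The value of 4.24 CPM in 8-cell SoLo, 39 counts, was embryo 020816_06, whose SPIA library had 0.245 CPM and which carried cumulus markers in both kits (444 CPM in SPIA and 680 CPM in SoLo), and the part of those markers in it was not tested. From morula to expanded blastocyst ELF3 rose by 1.72 ± 0.60 in SPIA with an adjusted p of 0.0462, close to the threshold: leaving out 1 library at a time gave 1.55 to 2.36 with adjusted p from 0.00727 to 0.0836, and 6 of 25 such fits passed. The same step in SoLo was 1.69 ± 0.87 (adjusted p 0.369).

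DLX3 was the last to appear. In 8-cell SPIA libraries 5 of 9 held no count, which allows up to 0.113 to 0.397 CPM, and the highest was 3.60 CPM in 011516_03. Among morulas 4 of 11 held none, 4 others held at most 0.121 CPM, and 3 stood far above: 48.8 CPM in 022916_01, 25.5 CPM in 020816_02 and 16.0 CPM in 022916_02. Expanded blastocysts spanned 2.28 to 56.4 CPM with a median of 36.4, and the lowest, 111715_05, rests on 1 count. In SoLo the values were 0.109, 0, 0 and 9.47 CPM at the 8-cell stage, 0, 0 and 23.7 CPM in morulas and 18.5 to 54.2 CPM in expanded blastocysts. Within title code 020816 the 5 8-cell SPIA libraries held at most 0.290 CPM of DLX3 and the 3 morulas 25.5, 0 and 0.0803 CPM. The SoLo morula at 23.7 CPM was 022916_01, the highest morula in SPIA too. The 8-cell embryo at 9.47 CPM in SoLo was 112815_02, which had 0 in SPIA (up to 0.248 CPM) and which carried cumulus markers in both kits, and their part in this value was not tested.

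In the edgeR fit DLX3 rose from 8-cell to morula in SPIA by 4.09 ± 1.27 on the log2 scale (adjusted p 0.0206), where 8 of the 11 morulas held at most 0.121 CPM, and from 8-cell to expanded blastocyst by 6.07 ± 1.39 (adjusted p 0.000757). The step from morula to expanded blastocyst was 1.98 ± 1.03 and did not pass (adjusted p 0.200). On the log scale of voom, with title code as a block, the larger step was the later one: the step to the morula was 2.29 (adjusted p 0.148) and the step to the expanded blastocyst 5.88 (adjusted p 4.72e-06). Without morula 022916_01 the edgeR step to the morula was 3.12 (adjusted p 0.0600), without the 3 embryos with cumulus markers it was 3.48 (adjusted p 0.0760), and in the SPIA embryos that have no SoLo library it was 2.79 (adjusted p 0.277). In SoLo no step of DLX3 passed in edgeR (1.74 with an adjusted p of 0.563, then 2.38 with 0.585, and 4.12 with 0.105 over both). The SoLo value turned on single libraries, since the step to the morula was -7.26 without morula 022916_01 and 7.29 (adjusted p 0.0436) without 8-cell embryo 112815_02, and the step from 8-cell to expanded blastocyst was 9.67 (adjusted p 0.00645) without the latter.

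**Figure D2:**
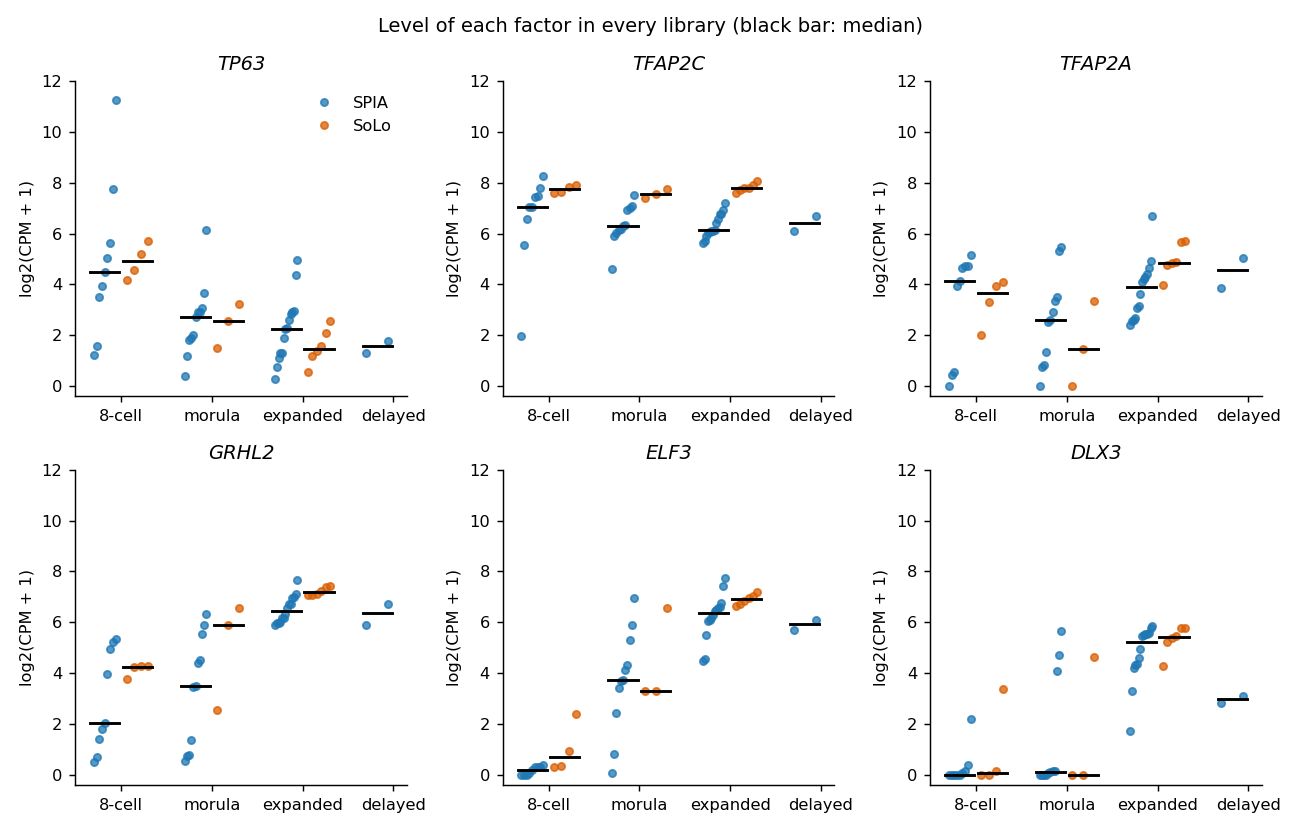
Level of each factor as log2(CPM + 1), on the vertical axis, in every library by stage, for SPIA (blue) and SoLo (orange), each scaled within its kit; a point is a library and a black bar the median of its group. TP63 goes down and GRHL2, ELF3 and DLX3 go up from left to right, TFAP2C has no step past the test, and 3 SPIA morulas hold DLX3 at 16.0 to 48.8 CPM while the other 8 lie near 0.

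Counted together, 3 of the 6 factors passed between 8-cell and morula in SPIA (ELF3 and DLX3 up, TP63 down), where 19.4% of all 15578 genes tested did (9.06% up and 10.3% down). In SoLo 2 of 6 passed (ELF3 up, TP63 down), where 16.7% of 14196 genes did (9.78% up and 6.92% down). From morula to expanded blastocyst 2 of 6 passed in SPIA (ELF3 and GRHL2, both up), where 14.7% of genes did (4.71% up and 9.95% down). In SoLo 0 of 6 passed and 1.14% of genes did (0.113% up and 1.03% down); 2 of 6 (TFAP2A and GRHL2) had an unadjusted p under 0.05, DESeq2 called TFAP2A, and voom without a block called ELF3, TFAP2A, DLX3 and GRHL2. Over the whole span from 8-cell to expanded blastocyst 4 of 6 passed in SPIA (ELF3, DLX3 and GRHL2 up, TP63 down), where 36.6% of genes did (12.9% up and 23.7% down), and 3 of 6 in SoLo (the same without DLX3), where 38.4% did (18.6% up and 19.8% down). The members' counts are to be read against these shares, which are large over the whole span. Direction differed between kits for TFAP2C from morula to expanded blastocyst (-0.15 in SPIA and 0.24 in SoLo) and over the whole span (-0.79 and 0.06). Direction was shared by both kits in each of these steps for ELF3, GRHL2, DLX3, TP63 and TFAP2A, though no step of TFAP2A passed in either kit. The SoLo embryos also have SPIA libraries, so this is a repeat on the same embryos and not on new ones. For DLX3 the SoLo step to the morula was -7.26 without morula 022916_01.

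**Figure D3:**
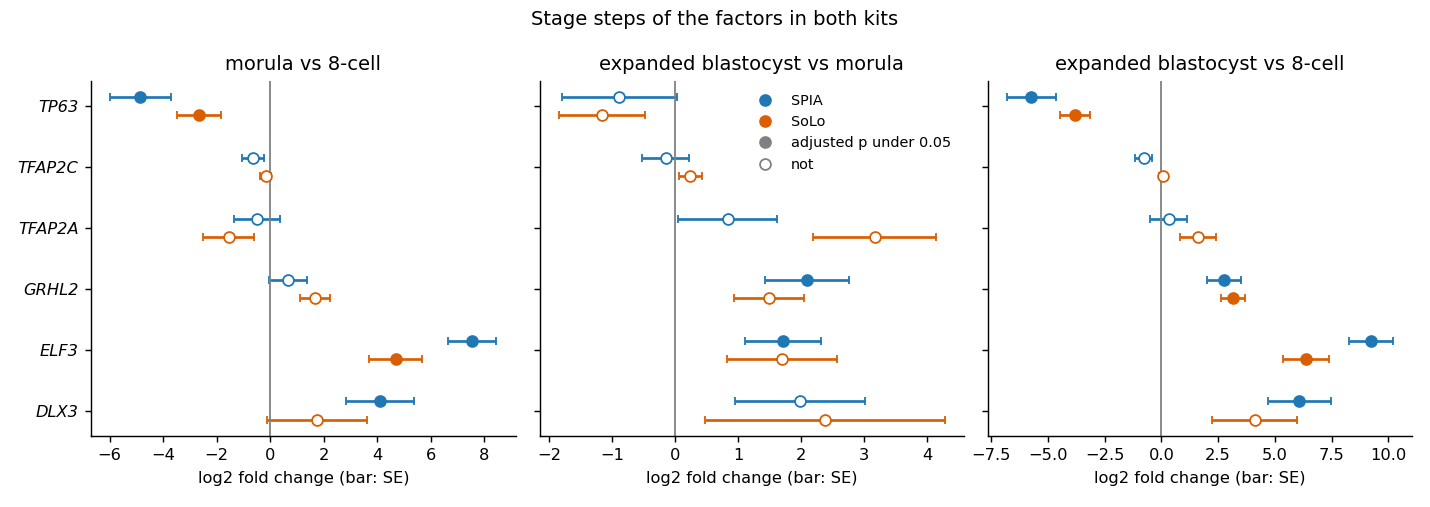
Log2 fold change (horizontal axis) with its standard error for each factor between stages, in SPIA (blue) and SoLo (orange); a filled circle marks an adjusted p under 0.05 and an open circle one above it. ELF3 and TP63 are filled in both kits from 8-cell to morula, GRHL2 and ELF3 in SPIA from morula to expanded blastocyst, and the axes differ in range between panels.

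No factor passed between delayed and expanded blastocysts. In edgeR 0 of 15578 genes passed (0%), 196 had an unadjusted p under 0.05, DESeq2 called 25 and voom 1, none of them a factor of the set. With 2 delayed blastocysts the intervals are wide. DLX3, at 5.99 and 7.67 CPM, lay below 13 of the 14 expanded blastocysts in both embryos, and its log2 difference was -2.25 ± 2.21 (adjusted p 1). TFAP2C differed by 0.04 ± 0.69 and GRHL2 by -0.25 ± 1.19. Both delayed embryos have the title code 112515, as do 2 of the expanded ones, which held DLX3 at 17.6 and 23.2 CPM.

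Pairs of factors were also compared within a library. The difference of log2(CPM + 1) between 2 factors was tested over SPIA libraries for 3 pairs and 2 steps, 6 tests in all, by two-sided permutation of libraries. Where 1 factor of a pair is near 0, as DLX3 and ELF3 were early on, the difference is mostly the level of the other, and scaling does not cancel from it. ELF3 minus GRHL2 moved from -2.71 ± 1.97 (SD, n = 9) at the 8-cell stage to 0.33 ± 1.74 (n = 11) in morulas, a gain of 3.04 (exact permutation p 0.00252, adjusted 0.00614). From morula to expanded blastocyst it changed by -0.62 (permutation p 0.283, adjusted 0.340). The gain is in how far ELF3 moved relative to GRHL2, and says nothing of which of the pair was the more abundant, since transcript lengths were not used. DLX3 minus TP63 moved from -4.62 ± 2.98 to -1.25 ± 1.90 in morulas (exact permutation p 0.00307, adjusted 0.00614) and to 2.49 ± 2.08 (n = 14) in expanded blastocysts (permutation p 0.00032, adjusted 0.00192). TFAP2A minus TFAP2C changed by -0.34 to the morula (exact permutation p 0.717) and by 1.27 to the expanded blastocyst (permutation p 0.0549, adjusted 0.0823).

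In SoLo the differences are values only: 4 libraries against 3 cannot give a p below 0.0571, and the later step was not tested. ELF3 minus GRHL2 was -3.13 ± 0.90 (n = 4), -0.63 ± 1.77 (n = 3) and -0.32 ± 0.24 (n = 6) in stage order. DLX3 minus TP63 was -4.03 ± 2.03, -0.89 ± 2.71 and 3.76 ± 1.15. TFAP2A minus TFAP2C was -4.40 ± 0.99, -5.97 ± 1.5 and -2.85 ± 0.74. Each pair went the same way as in SPIA at each step, except ELF3 minus GRHL2 from morula to expanded blastocyst, 0.31 in SoLo and -0.62 in SPIA, a step that did not pass in SPIA.

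**Figure D4:**
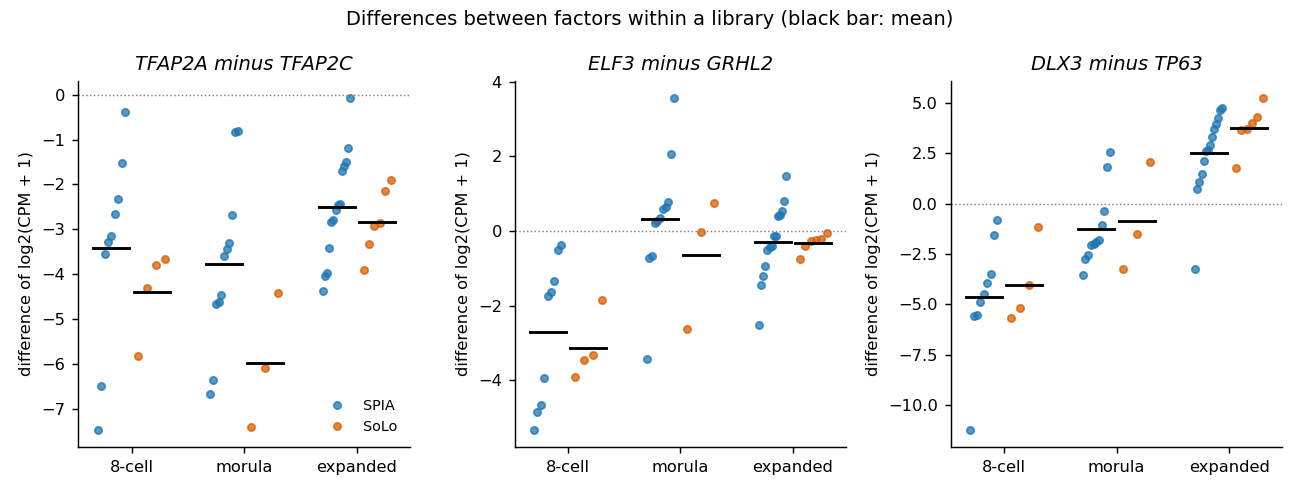
Difference of log2(CPM + 1) between 2 factors within a library (vertical axis) by stage, for SPIA (blue) and SoLo (orange); a point is a library, a black bar the mean, and the dotted line marks equal values. DLX3 minus TP63 climbs from a mean of -4.62 to 2.49 in SPIA and from -4.03 to 3.76 in SoLo, and ELF3 minus GRHL2 gains 3.04 between 8-cell and morula in SPIA.

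Single morulas held quite different combinations of the factors. ELF3, GRHL2 and DLX3 were all above 15 CPM in 020816_02 and 022916_01. In 022916_01 they reached 121, 80.2 and 48.8 CPM, the highest of the 11 for each, with GATA2 at 115 CPM and KRT18, a keratin of simple epithelium, at 98.5 CPM. The SoLo library of that embryo was the highest of 3 for ELF3 (93.1 CPM), GRHL2 (94.5 CPM), DLX3 (23.7 CPM), TFAP2A (9.16 CPM) and TFAP2C (216 CPM), with GATA2 at 221 CPM. At the other end, 020816_04 held ELF3 at 0.0402 CPM and GRHL2 at 0.723 CPM, and 022416_02 held them at 0.781 and 0.469 CPM. In 021016_03 ELF3 was on and GRHL2 below 1 CPM in SPIA (18.9 and 0.680 CPM), while both were on in SoLo (8.78 and 4.83 CPM). Embryo 022916_02 joined early and late genes, with GATA2 at 262 CPM and GATA3 at 126 CPM, both the highest of the 11, beside ZSCAN4 at 171 CPM, also the highest, and TP63 at 69.3 CPM and TFAP2A at 43.4 CPM, again the highest. KRT18 was lowest there, at 1.604 CPM. These morulas were picked out after their values were seen.

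Among expanded blastocysts the coefficients of variation of GRHL2, ELF3 and DLX3 were 41.6, 59.4 and 53.6% in SPIA and 11.5, 14.8 and 32.1% in SoLo. Embryo 112415_03 had the highest ELF3 (212 CPM) and TFAP2A (103 CPM) and the second lowest DLX3 (8.83 CPM) of the 14 in SPIA. In SoLo it again had the highest ELF3 (145 CPM) and the lowest DLX3 (18.5 CPM) of 6, with GRHL2 also highest at 173 CPM. ZSCAN4 stood at 12.04 CPM in its SPIA and 25.4 CPM in its SoLo library, against a SPIA median of 0.788 CPM.

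The kits were compared over the 11 embryos matched in both, on 1 joint TMM scale with stage in the model. Of the 6 factors 1 passed, TFAP2A, where 18.5% of 14724 genes did. TFAP2A was lower in SoLo by a log2 difference of -2.07 ± 0.59 (adjusted p 0.0126) and lower in 10 of 11 embryos; the exception was expanded blastocyst 111715_04, with 6.34 CPM in SPIA and 11.4 CPM in SoLo on the joint scale. With each embryo as a block it was -1.96 (adjusted p 0.0100). TP63 was lower in 9 of 11 embryos, by -1.54 ± 0.58 (adjusted p 0.0622). ELF3 was lower in SoLo in 9 of 11 embryos too and DLX3 in 8 of 11, with blocked values of -0.62 (adjusted p 0.302) and -0.75 (adjusted p 0.496). Some of these pairs lie near the floor. DLX3 had 1 count in each kit in 8-cell embryo 020816_06, and 1 in SPIA and 0 in SoLo in morulas 021016_02 and 021016_03. ELF3 had 2 counts in each kit in 8-cell embryo 020816_08. In the fit without the block ELF3, TFAP2C, DLX3 and GRHL2 differed by -0.36 ± 0.64, -0.02 ± 0.24, -0.01 ± 1.21 and -0.30 ± 0.64, and none passed. These signs depend on the scaling: with total counts alone the median of all genes moved from 0.08 to 0.80, and TFAP2A was then at -1.20 (adjusted p 0.118).

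No stage step was shown to differ between kits. The interaction of kit with the step gave 0 calls among 14724 genes (0%) for morula against 8-cell and 0 (0%) for expanded blastocyst against morula, with 1199 and 491 genes at an unadjusted p under 0.05 (edgeR; no other tool was run). In the fit without the block the largest interaction of a factor by p was that of ELF3 from 8-cell to morula, -3.39 ± 1.41, a smaller rise in SoLo, with an adjusted p of 0.550. For DLX3 it was -6.16 ± 3.21 (adjusted p 0.658). With each embryo as a block the ELF3 interaction was -3.08 ± 0.94 (edgeR unadjusted p 0.00311, adjusted p 0.536). That of TFAP2A from morula to expanded blastocyst was then 3.34 ± 1.22 (unadjusted p 0.0112) and did not pass.

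**Figure D5:**
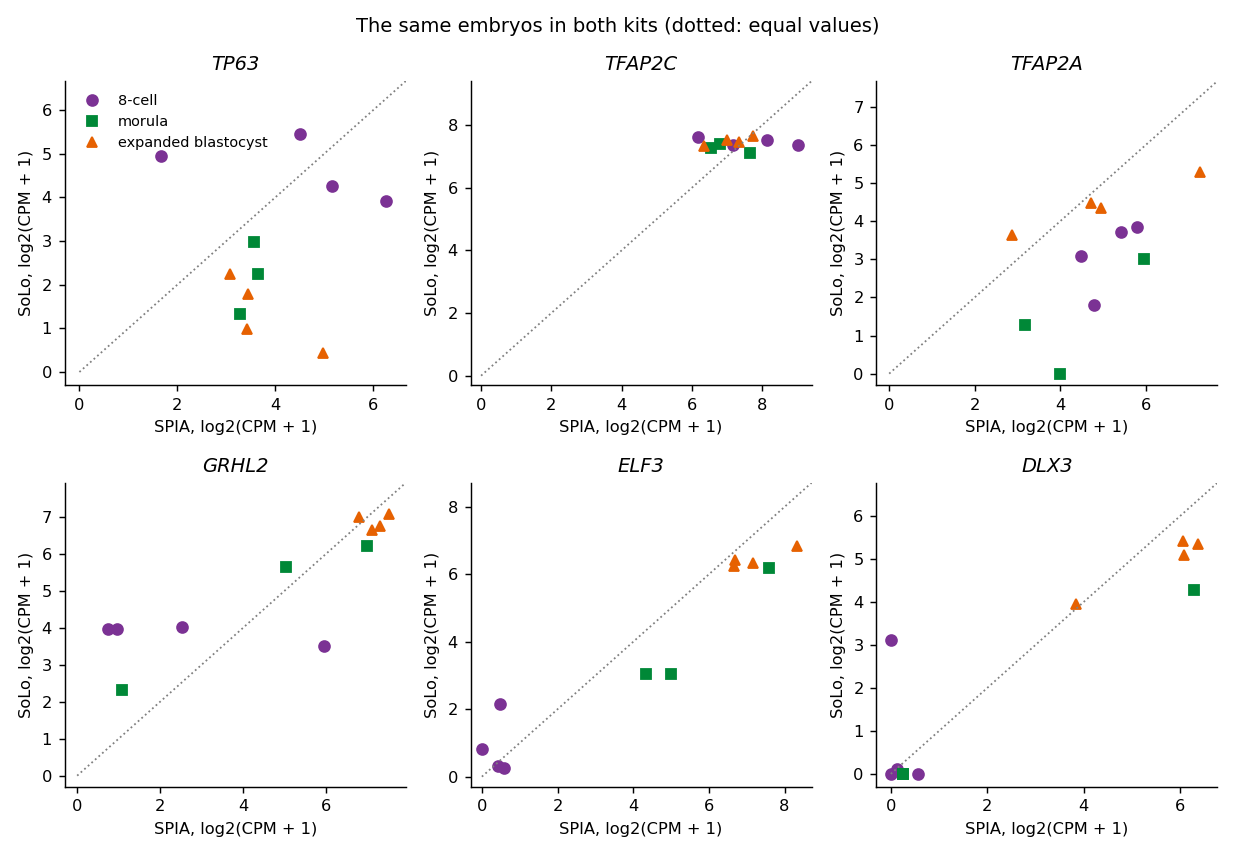
Each of 11 embryos matched in both kits, as log2(CPM + 1) on a joint scale, SPIA on the horizontal and SoLo on the vertical axis; circles are 8-cell embryos, squares morulas, triangles expanded blastocysts, and the dotted line marks equal values. TFAP2A lies below the line in 10 of 11 embryos, and the 8-cell embryo at 0 in SPIA but well above 0 in SoLo for DLX3 is 112815_02.

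Relatives of the factors split in both directions, as all genes did. Over all genes tested in SPIA 9.06% rose and 10.3% fell from 8-cell to morula. From morula to expanded blastocyst 4.71% rose and 9.95% fell. Of 33 listed paralogs (ELF, TFAP2, KLF, DLX, p53 and GRHL families) 29 had a name and 25 were tested in SPIA: 7 rose and 3 fell from 8-cell to morula (median log2 change 0.70, against -0.14 for all genes), and 1 rose and 5 fell from morula to expanded blastocyst (median -0.84 against -0.29). KLF4, a pluripotency factor, rose from 21.9 ± 14.3 to 217 ± 123 CPM, a log2 change of 3.31 ± 0.50 (adjusted p 1.75e-05), and KLF8 by 4.04 ± 0.85 (adjusted p 0.00136). KLF17, a factor of the 8-cell stage and epiblast, fell from morula to expanded blastocyst by 3.54 ± 0.88 (adjusted p 0.00709) and from 8-cell to expanded blastocyst fell by 6.20 ± 0.99 (adjusted p 1.01e-05). DLX4, which neighbours DLX3 in mammalian genomes, rose from 0.0229 ± 0.05 to 3.01 ± 3.83 CPM between 8-cell and expanded blastocyst, a log2 change of 6.61 ± 1.53 (adjusted p 0.000841), and DLX6 rose from 8-cell to morula by 6.56 ± 1.63 (adjusted p 0.00488). DLX6 was at 2.52 ± 5.32 CPM (SD) in these morulas, a spread larger than the mean. Its step to the morula did not pass in SoLo (3.14 ± 1.56, adjusted p 0.171). In SoLo 3 of 23 rose and 3 fell to the morula, and 8 rose and 5 fell over the whole span. The shares up and down over all SoLo genes were 9.78% and 6.92%, then 18.6% and 19.8%. KLF8 rose there by 4.11 ± 0.73 (adjusted p 0.00123).

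Epithelial genes were next. Of 22 named and 21 tested in SPIA, 8 rose and 0 fell from 8-cell to morula (median 1.31 against -0.14 for all genes), 5 rose and 2 fell to the expanded blastocyst (0.86 against -0.29), and 11 rose and 2 fell over the whole span. Over all genes the shares up and down in these steps were 9.06 and 10.3%, 4.71 and 9.95%, and 12.9 and 23.7%. CLDN4, a claudin of tight junctions, rose to the morula by 7.91 ± 1.49 (adjusted p 0.000408), CLDN3 by 7.42 ± 1.80 (adjusted p 0.00404; 3.08 ± 9.21 CPM (SD) in morulas, a spread larger than the mean) and KRT18 by 4.13 ± 0.79 (adjusted p 0.000542). KRT19, RAB25, which sorts proteins in epithelial cells, and KRT7 rose to the expanded blastocyst by 5.14 ± 1.19, 4.27 ± 0.95 and 4.40 ± 1.34 (adjusted p 0.00390, 0.00324 and 0.0229). In SoLo 7 of 21 rose and 0 fell to the morula and 13 rose and 1 fell over the whole span, with PKP3, a plakophilin of desmosomes, at 8.53 ± 0.83 (adjusted p 1.69e-06). From morula to expanded blastocyst in SoLo 0 of 21 passed in edgeR, with 9 at an unadjusted p under 0.05. Of all genes 1.14% passed in that step. To the morula 9.78% of all SoLo genes rose and 6.92% fell, and over the whole span 18.6% rose and 19.8% fell.

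Other trophectoderm and trophoblast regulators (19 named, 18 tested in SPIA) had 5 higher and 2 lower in morulas than 8-cell embryos (median 1.24), and 2 higher and 0 lower in expanded blastocysts than morulas (median 1.10). Of all genes 9.06% were higher and 10.3% lower in the first step, and 4.71% and 9.95% in the second. GATA2 rose to the morula by 4.75 ± 1.31 (adjusted p 0.0119), with 3 of 11 morulas at 262, 115 and 13.9 CPM and the other 8 at 1.72 CPM or less. HAND1, a factor of trophoblast and extraembryonic mesoderm, rose by 5.84 ± 1.47 (adjusted p 0.00530). Its level in these morulas was 4.64 ± 9.98 CPM (SD), a spread larger than the mean, and the step did not pass in SoLo (0.999 ± 1.56, adjusted p 0.701). VGLL1, a cofactor of TEAD proteins, and TFCP2L1 rose to the expanded blastocyst by 4.18 ± 1.25 and 2.73 ± 0.87 (adjusted p 0.0197 and 0.0269). In SoLo 4 of 17 rose to the morula, among them TBX3 by 4.76 ± 1.09 (adjusted p 0.0136), MSX2 by 2.51 ± 0.63 (adjusted p 0.0126) and CITED2 by 1.95 ± 0.46 (adjusted p 0.00938), and 9 rose and 1 fell over the whole span. Over all SoLo genes 9.78% rose to the morula, and 18.6% rose and 19.8% fell over the whole span.

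Mesenchymal factors and vimentin, which mark the opposite of an epithelial state in many tissues, had 2 of 8 tested lower and 0 higher in SPIA morulas than 8-cell embryos (median -1.01): VIM fell by 3.12 ± 0.96 (adjusted p 0.0187) and FN1 fell by 5.44 ± 1.26 (adjusted p 0.00368). In SoLo 2 of 6 fell, again VIM (-3.96 ± 1.07, adjusted p 0.0269) and FN1 (-5.43 ± 1.69, adjusted p 0.0499). Of all genes 9.06% rose and 10.3% fell to the morula in SPIA, and 6.92% fell in SoLo. Cumulus markers moved with VIM and FN1: 7 of 13 tested were lower and 1 higher in SPIA morulas than 8-cell embryos. Among them IGFBP5 fell by 6.62 ± 0.82 (adjusted p 4.26e-07). The part of cumulus cells in the VIM and FN1 values was not tested. From morula to expanded blastocyst in SPIA 2 of 8 rose and 1 fell: FN1 rose by 3.62 ± 1.12 (adjusted p 0.0262) and ZEB2, a repressor of cadherin, fell by 4.00 ± 1.02 (adjusted p 0.00725). Of all genes 4.71% rose and 9.95% fell in that step.

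Products of trophoblast had 1 of 16 tested higher and 3 lower in SPIA morulas than 8-cell embryos and 4 higher and 1 lower in expanded blastocysts than morulas, against 9.06% up and 10.3% down and then 4.71% up and 9.95% down over all genes. In SoLo 0 of 16 were higher and 1 lower to the morula, 1 higher and 0 lower to the expanded blastocyst, and 3 higher and 4 lower over the whole span. Over all SoLo genes the shares up and down in these steps were 9.78 and 6.92%, 0.113 and 1.03%, and 18.6 and 19.8%. Between 8-cell and morula in SPIA PGF rose by 4.69 ± 1.53 (adjusted p 0.0266). GCSAML and CYP19A1 changed by -6.29 ± 1.55 and -4.43 ± 1.52 (adjusted p 0.00463 and 0.0342). For each of these genes the SD exceeded the mean in the higher group, and CYP19A1 is also a cumulus marker. SLC34A2, also a genome activation gene, changed by -3.80 ± 0.45 in that step in SoLo (adjusted p 4.7e-05). In SPIA ENPEP, a peptidase used to sort trophectoderm, rose to the expanded blastocyst by 5.52 ± 1.19 (adjusted p 0.00282) and ABCG2, a transporter, by 6.52 ± 1.12 (adjusted p 0.000295).

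The genes whose levels were most like each factor over 36 SPIA libraries were found by Pearson r of log2(CPM + 1) among 10221 named genes with a mean of at least 1 CPM, and r over the 13 SoLo libraries is given beside it as a description. Libraries share stage, depth and scaling, so these values carry no test. ELF3 was most like S100P (0.897 and 0.949 in SoLo), KRT18 (0.880 and 0.923) and LRP2 (0.865 and 0.944). DLX3 was most like GATA2 (0.932 and 0.974), PLAC8 (0.898 and 0.934) and FABP4 (0.878 and 0.862). GRHL2 was most like SH3BP5 (0.864 and 0.771), the DNA methyltransferase DNMT3B (0.820 and 0.863) and PCSK5 (0.818 and 0.747). TP63 was most like FER1L6 (0.842 and 0.905), IL1RL2 (0.838 and 0.382) and PHEX (0.831 and 0.845). For TFAP2A (PDPN and SIRT5, 0.700 and 0.659) and TFAP2C (ANP32B, PDS5A and NUP155, 0.768, 0.768 and 0.760) the likeness did not carry over to SoLo, where r was 0.454 and -0.137 for the first pair and -0.458, -0.261 and -0.129 for the other 3.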

How the data were processed

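Libraries of 2 kits from single rhesus embryos were compared. Per the values and the labels, the authors deposited a table of raw whole-number counts for each identifier and library. HISAT2 and DESeq2 are named in the submitters' processing notes, without versions. For the counter, build, annotation release and strand setting, the answer is not given in the sources used here. Antisense or overlapping genes and near-identical copies may therefore share counts. Of 52 columns, 49 were matched to samples by title or, for 2, by group, 3 matched none and were not used, and 3 of 52 samples were not analysed here. Symbols came from an Ensembl identifier list (15078 of 26309 identifiers). No genome was used, so no coordinates or sequences are given.

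Stage steps were fitted with edgeR 4.0.16 in R 4.3.3 (robust quasi-likelihood, TMM, filterByExpr, Benjamini-Hochberg over all genes tested, threshold 0.05), with 4 SPIA groups in 1 fit and 3 SoLo groups in another, without covariates. The standard error is the log2 fold change divided by the square root of F. Pair differences used a pseudocount of 1 CPM and permutation tests with 100000 resamples, or exact ones for groups under 10 libraries. The design planned 8 pair tests, and KLF5 left 6. DESeq2 1.42.0, voom in limma 3.58.1, filters, scalings and left-out libraries were alternatives, and scalings over both kits and fits within a title code were added after seeing the data. Only the edgeR step from 8-cell to morula was tried on simulated counts, in each kit, and the other tests were not. Descriptions and figures used Python 3.11.15, numpy 2.4.6, pandas 2.3.3, scipy 1.17.1 and matplotlib 3.10.9.

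Named genes were all factors of the set, in each list up to 3 called genes with the largest change and a mean of at least 1 CPM in a group, the stage checks, and the 3 genes most like each factor, of which 1 is not reported here. The factors and lists were chosen with earlier results of these data known. The labels present embryos of a group as separate samples, those of a title code may share parents, and p-values measure only the spread between these samples. No 2 libraries of a group agreed within sampling noise (chi-square per degree of freedom at least 16.8). Libraries of 1 embryo in both kits were recognised by stage, title code and number: their deviations from group means correlated with a median of 0.177 over 11 pairs, 10 of 11 above 0.1, the exception being 111715_02 at 0.0135. Of the 11 SoLo libraries, 10 correlated best with the SPIA library of their own embryo among the matched embryos of their stage. The embryo block was fitted for the kit comparison, since the same embryo is named. Limits for a count of 0 are 3 counts of the total and cover counting error only.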

Additional observations from a re-analysis of the deposited data

Results flagged for a closer look

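In groups of 4 to 10 libraries, 4 of 18 sets of values had a highest or lowest library far from the rest by Dixon's criterion on log2(CPM + 1). For normally distributed values chance gives about 1 in 20. That rate does not hold for the flagged DLX3 sets, where 5 of 9 SPIA and 2 of 4 SoLo libraries held no count. TFAP2C was 2.92 CPM in 8-cell SPIA library 020816_09, and the next lowest was 45.9 CPM. DLX3 was 3.60 CPM in 8-cell SPIA library 011516_03, and the next was 0.290 CPM. DLX3 was 9.47 CPM in 8-cell SoLo library 112815_02, and the next was 0.109 CPM. GRHL2 was 12.5 CPM in 8-cell SoLo library 020816_08, and the next lowest was 17.7 CPM. No cause was tested for any of them.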

How the results depend on the processing

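Leaving out a library at a time kept the direction and the call in 617 of 660 values of single factors, and other settings did so in 437 of 494. Counts of calls moved by over 1.5 times in 24 of 83 other settings. From 8-cell to morula in SPIA (3024) they were 4634 without a filter, 1339 with a stricter one, 446 with the groups compared fitted alone, 1796 with voom, 1979 with voom and the title code block, 1876 in libraries under 12 M, 962 in embryos of SPIA only and 4 within code 020816. From morula to expanded blastocyst (2283) they were 3792, 995 and 1297 for the first 3 of these, 1310 under 12 M and 657 in embryos of SPIA only. From 8-cell to expanded blastocyst (5707) they were 3117, 3705 and 2804 with a stricter filter, groups alone and embryos of SPIA only. Delayed against expanded (0) gave 25 with DESeq2 and 1 with voom, block or not. In SoLo the step to the morula (2371; 1388 higher, 983 lower) gave 4012 with DESeq2 (1734 higher, 2278 lower) and 1266 with groups alone. The SoLo step to the expanded blastocyst (162; 16 higher, 146 lower) gave 841 with DESeq2 (373 higher), 564 with voom (384 higher), 291 with the block (211 higher), and 5 to 1477 without 1 library, the highest without morula 022916_01, where ELF3 (3.76), TFAP2A (5.13), DLX3 (11.39) and GRHL2 (2.22) passed.

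Signs turned in values that had not passed. TP63 from morula to expanded blastocyst in SPIA was 0.51 with DESeq2 and 0.48 under 12 M. TFAP2C was 0.062 in that step with voom and 0.091 with the block, and -0.045 for delayed against expanded with both. From 8-cell to expanded blastocyst in SoLo it was -0.0016, -0.0038 and -0.021 with RLE, DESeq2 and a stricter filter. Within code 112515, delayed against expanded was 0.18 for ELF3 and 1.21 for TP63. Leaving out a library turned TFAP2A from 8-cell to expanded blastocyst in SPIA (-0.25 to 0.56), TP63 from morula to expanded blastocyst in SPIA (-1.22 to 0.28), DLX3 from 8-cell to morula in SoLo (-7.26 to 7.29) and, for delayed against expanded, TFAP2A (-0.53 to 0.77), TFAP2C (-0.30 to 0.31) and GRHL2 (-0.75 to 0.12). TFAP2A minus TFAP2C ranged from -0.85 to 0.040 to the morula and from 0.98 to 1.57 to the expanded blastocyst, and passed the latter with a pseudocount of 0.1 (1.78, adjusted permutation p 0.0497). The cause was not tested.

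With each embryo as a replicate block the kit difference called 2901 genes against 2717, and that of TFAP2C and GRHL2 was 0.17 and 0.51; the block changed no call of a factor. Under RLE over both kits TFAP2C and DLX3 were 0.016 and 0.032, and the GRHL2 interaction 0.0066 to the expanded blastocyst. With total counts the calls were 3980 (3600 higher, 380 lower; 1264 and 1453 with TMM), ELF3, TFAP2C, DLX3 and GRHL2 were 0.47, 0.66, 0.70 and 0.50, and the GRHL2 interaction to the morula was 0.043. Between stages no paired analysis was possible because an embryo is sampled at 1 stage. The 8-cell values of ELF3 in SPIA rest on at most 6 counts a library.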
